A study of Homo sapiens with 24 samples.

Results

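The epithelial sodium channel was examined through 4 genes of the 60675 counted: SCNN1A, SCNN1B and SCNN1G, which encode the alpha, beta and gamma subunits, and NEDD4L, a ubiquitin ligase that binds the channel. The members were chosen by gene symbol, and SCNN1B and SCNN1G were taken up because their counts were higher after METTL3 knockdown in LNCaP:C4-2 cells in vehicle. Their values in that comparison, and in contrasts that use its libraries, are therefore given as a description with no p-value. SCNN1A and NEDD4L were not picked for a value in a named contrast and were tested throughout. All 4 members were, however, chosen with earlier results of these data known.

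RNA-seq gene counts came from 24 libraries of prostate cancer cell lines, 3 for each of 8 groups. LNCaP:C4-2, an androgen-independent derivative of LNCaP cells, and 22Rv1, a line from a prostate carcinoma xenograft, each received either non-targeting control siRNAs (siSCR) or pooled siRNAs directed at METTL3 (siMETTL3). METTL3 is the catalytic subunit of the complex that writes N6-methyladenosine into mRNA. After 48 h, a repeat transfection was made together with the synthetic androgen R1881 at 1 nM or its vehicle ethanol, for 72 h. All 8 groups were grown in phenol red-free medium with charcoal-stripped serum, so vehicle cells were steroid-depleted. Each group was a transfected cell population and each line a single line. The labels number the replicates but do not say whether they came from separate cultures, so p-values measure the spread between these libraries, which may be technical.

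The channel is an apical heteromer of alpha, beta and gamma subunits through which sodium enters tight epithelia such as the kidney collecting duct, the distal colon and the airway. SCNN1A encodes the subunit needed for conductance, and the beta and gamma subunits are needed for full surface expression. In the kidney, aldosterone acts through the mineralocorticoid receptor to raise the kinase SGK1, which phosphorylates NEDD4-2, the product of NEDD4L, and so slows the ubiquitination and retrieval of the channel.

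In the build used for counting, GRCh38 with Ensembl release 83, SCNN1G lay on chromosome 16 from 23182715 to 23216883 and SCNN1B on the same strand from 23278231 to 23381299, with a gap of 61.35 kb and 0 annotated genes between them. SCNN1A lay on chromosome 12 from 6346843 to 6377730 on the minus strand, and NEDD4L on chromosome 18 from 58044367 to 58401540 on the plus strand. SCNN1A shared 422 of its 5876 exon bases (7.18%) with LTBR on the opposite strand. The counting did not use strand and left out fragments that fell on both, so SCNN1A was counted over the rest of its exons.

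RefSeq promoter windows (GRCh38.p14, 250 bases before to 50 after a transcript start) were at hand for SCNN1B and NEDD4L, 2 of the 4 members. The SCNN1B window is shown because SCNN1B and SCNN1G changed together, and a NEDD4L window because NEDD4L rose with the androgen. Of the 5 NEDD4L windows, the one that held the marked letters is shown. Each is the plus strand, 5′ to 3′. In the SCNN1B window capitals mark the letters ACGTG or GCGTG on either strand, the core of the hypoxia response element. In the NEDD4L window they mark AGAACA on either strand (TGTTCT as printed), the letters shared by androgen, glucocorticoid and mineralocorticoid response elements.
SCNN1B, chr16:23302052-23302351: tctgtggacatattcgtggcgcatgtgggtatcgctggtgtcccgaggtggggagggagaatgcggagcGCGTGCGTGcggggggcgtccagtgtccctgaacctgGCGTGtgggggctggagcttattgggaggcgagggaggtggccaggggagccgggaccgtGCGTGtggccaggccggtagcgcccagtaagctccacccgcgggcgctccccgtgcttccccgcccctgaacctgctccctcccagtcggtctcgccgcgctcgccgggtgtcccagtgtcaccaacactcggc
NEDD4L, chr18:58046976-58047275: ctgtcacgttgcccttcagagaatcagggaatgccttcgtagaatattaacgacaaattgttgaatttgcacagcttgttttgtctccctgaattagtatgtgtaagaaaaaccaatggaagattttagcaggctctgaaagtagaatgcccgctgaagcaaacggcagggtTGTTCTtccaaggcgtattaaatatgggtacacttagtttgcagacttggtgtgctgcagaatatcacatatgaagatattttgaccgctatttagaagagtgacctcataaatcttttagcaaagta

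The SCNN1B window had its start at 23302302, inside the gene as counted, which began at 23278231. G and C made up 70.0% of its bases. It held 4 matches to ACGTG or GCGTG, at 181, 177, 144 and 84 bases before the start, of which the first pair overlap. At least 1 match was found in 48.4% of the 35116 promoter windows of this length and at least 4 in 4.40%. It also held 1 match to GGGCGG, the SP1 site, 24 bases before the start, which 45.0% of windows held. It held 0 matches to AGAACA, to the TATA box letters TATAAA or to the AP-1 site (TGACTCA and its reverse complement). NEDD4L had 5 windows, and only the one shown, with its start at 58047226, matched AGAACA, 78 bases before the start, as 14.8% of all windows did. That share is per window, and a gene with 5 windows has more chances of a match. That window also held 1 hypoxia element core, at 246 bases before the start, and none of the other 3 motifs. TATAAA was in 11.5% and the AP-1 letters in 4.95% of windows. These are matches of letters and were not tested for binding.

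Library totals ran from 15716224 to 21306019 counts, so 3 counts, the level taken as the floor, corresponded to 0.141 to 0.191 CPM (counts divided by the library total in units of 1e6). Levels are given as CPM after TMM scaling over all 24 libraries, and as CPM per kilobase of exon where genes are compared. Folds were called at an edgeR quasi-likelihood adjusted p under 0.05 (Benjamini-Hochberg over all genes tested) and at least 1.5-fold. METTL3 itself, the target of the knockdown, averaged 28.8 ± 2.35 CPM (SD, n = 3) in siSCR and 19.04 ± 1.36 in siMETTL3 libraries of LNCaP:C4-2 in vehicle (1.53-fold lower, adjusted p = 0.0127). In 22Rv1 the vehicle means were 46.3 ± 0.69 and 24.9 ± 0.72 CPM (1.85-fold lower, adjusted p = 1.48e-06). With R1881 it was 1.48-fold lower in LNCaP:C4-2, just short of the fold threshold (adjusted p = 0.0256), and 2.27-fold lower in 22Rv1 (adjusted p = 1.29e-08). The vehicle call in LNCaP:C4-2 was lost in 4 of 6 omissions of 1 library, at log2 differences of -0.66 to -0.55 over all 6 (without siSCR vehicle replicate 1 or 3 or siMETTL3 vehicle replicate 2 or 3). METTL3 stayed at 17.5 CPM or more in all knockdown libraries, and it shares 388 exon bases with TOX4 on the opposite strand. Between replicates, the SD of log2 differences over genes was 0.201 to 0.433 with a median of 0.25, and the 2 largest values were those of LNCaP:C4-2 siMETTL3 vehicle replicate 1 with its partners. All 9 prostate luminal markers, such as KRT8 and EPCAM, exceeded 3 counts in at least 1 library of every group, whereas the basal marker KRT5, the endothelial marker PECAM1 and the T cell marker CD3E reached at most 2 counts in a library. The other basal markers KRT14 and TP63 reached 14 and 7 counts, and the leukocyte markers PTPRC and CD68 reached 28 and 3. The summed leukocyte level (3 markers) was 1.18 to 1.62 CPM in the siSCR vehicle libraries of LNCaP:C4-2 and 0.128 to 0.335 CPM in its siMETTL3 vehicle libraries, the groups on which SCNN1B and SCNN1G were chosen, and its part in their values was not tested. Among fibroblast and endothelial markers, COL1A1 (15.1 to 71.9 CPM) in both lines and VWF (2.23 to 12.3 CPM) in LNCaP:C4-2 were above the floor. The neuroendocrine marker SYP was at 77.8 to 120 CPM in 22Rv1 and at most 2.51 CPM in LNCaP:C4-2. The other neuroendocrine marker, CHGA, was low in both, at 0.16 to 1.3 CPM in 22Rv1 and at most 0.28 CPM in LNCaP:C4-2. Of the 2 collecting duct markers, AQP2 reached at most 6 counts in a library, and GATA3 was at 28.3 to 153 CPM in 22Rv1 and at most 0.864 CPM in LNCaP:C4-2.

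SCNN1A, the alpha subunit, was the most abundant channel subunit in all 8 groups, and its level set LNCaP:C4-2 apart from 22Rv1. With siSCR in vehicle it stood at 105, 104 and 94.3 CPM in LNCaP:C4-2 and at 18.7, 17.1 and 15.2 CPM in 22Rv1. The lines did not overlap, and SCNN1A was 5.93-fold lower in 22Rv1 (log2 -2.57 ± 0.10 SE, adjusted p = 3.95e-18). With R1881 the libraries stood at 122, 107 and 112 CPM in LNCaP:C4-2 and at 16.4, 12.9 and 12.5 CPM in 22Rv1, which was 8.14-fold lower (adjusted p = 2.03e-19). The lines differed at 59.2% of the genes tested in vehicle and at 60.1% with R1881, so a difference between them was the common case.

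Knockdown moved SCNN1A by less than the fold threshold in either line. In LNCaP:C4-2 vehicle the siMETTL3 libraries stood at 114, 123 and 121 CPM, above the 3 siSCR libraries (log2 0.23 ± 0.08, adjusted p = 0.192). With R1881 they stood at 151, 150 and 150 CPM, again above siSCR (log2 0.41 ± 0.08, adjusted p = 0.0346), a 1.33-fold difference. In 22Rv1 the log2 difference was 0.34 ± 0.11 in vehicle (adjusted p = 0.175) and 0.41 ± 0.12 with R1881 (adjusted p = 0.0214), and the libraries of the 2 siRNA pools did not overlap in either treatment. SCNN1A was thus not called in any of the 4 knockdown comparisons. Leaving out 1 library at a time, the adjusted p with R1881 ranged from 0.0118 to 0.239 in LNCaP:C4-2 and from 0.0138 to 0.114 in 22Rv1. The background share called was 1.20% of the genes tested in LNCaP:C4-2 vehicle, 0.700% in LNCaP:C4-2 with R1881, 0.202% in 22Rv1 vehicle and 3.29% in 22Rv1 with R1881.

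R1881 left SCNN1A within 1.5-fold as well. The log2 difference was 0.16 ± 0.08 with siSCR (adjusted p = 0.175) and 0.35 ± 0.08 with siMETTL3 (adjusted p = 0.00866, 1.27-fold) in LNCaP:C4-2. In 22Rv1 it was -0.29 ± 0.12 with siSCR (adjusted p = 0.0602) and -0.22 ± 0.11 with siMETTL3 (adjusted p = 0.147). The signs were opposite in the lines, and the difference between the lines in the response with siSCR was -0.46 ± 0.14 (adjusted p = 0.0234). It was no longer past the adjusted p without LNCaP:C4-2 siSCR vehicle replicate 3 (-0.43), 22Rv1 siSCR vehicle replicate 1 (-0.39) or 22Rv1 siSCR R1881 replicate 2 (-0.42). A difference between the lines in this response was called at 16.8% of the genes tested.

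SCNN1B, the beta subunit, was a low-abundance transcript whose highest counts were in a single group. In LNCaP:C4-2 with siSCR it had 43, 79 and 20 counts in vehicle and 43, 23 and 13 with R1881. With siMETTL3 it had 211, 238 and 146 counts in vehicle and 49, 49 and 20 with R1881. The siMETTL3 vehicle libraries lay above all others of the line, and the other 3 groups overlapped one another.

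In LNCaP:C4-2 vehicle SCNN1B averaged 2.59 ± 1.55 CPM (SD, n = 3) in siSCR libraries and 11.6 ± 3.00 in siMETTL3 libraries, a log2 difference of 2.14 ± 0.41 SE that is part of how the gene was chosen. Without siMETTL3 vehicle replicate 1, the library farthest from its partners, the difference was 2.02, and over all 6 omissions of 1 library it ran from 1.80 to 2.69. With R1881 the means were 1.57 ± 0.93 and 2.26 ± 0.96 CPM, and the knockdown difference was 0.54 ± 0.49 (adjusted p = 0.473). It ranged from 0.16 to 1.07 when single libraries were left out, the highest value without siSCR R1881 replicate 1 and the lowest without siSCR R1881 replicate 3.

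SCNN1G, the gamma subunit, followed the same pattern in LNCaP:C4-2. It had 67, 121 and 47 counts with siSCR in vehicle and 56, 31 and 43 with siSCR and R1881. With siMETTL3 it had 322, 329 and 221 counts in vehicle and 54, 87 and 31 with R1881. As for SCNN1B, the siMETTL3 vehicle libraries were the highest 3 of the line and the remaining groups overlapped.

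The means for SCNN1G in LNCaP:C4-2 vehicle were 4.31 ± 1.96 CPM with siSCR and 17.1 ± 4.23 CPM with siMETTL3 (log2 1.96 ± 0.32, part of how the gene was chosen). The difference was 1.81 without siMETTL3 vehicle replicate 1. With R1881 they were 2.53 ± 0.69 and 3.29 ± 1.58 CPM, and the knockdown difference of 0.38 ± 0.38 did not pass the test (adjusted p = 0.510). It turned to -0.04 without siMETTL3 R1881 replicate 2. Outside the siMETTL3 vehicle group, 13 to 121 counts stood behind each LNCaP:C4-2 value of the 2 genes, so counting error is part of their spread.

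**Figure D1:**
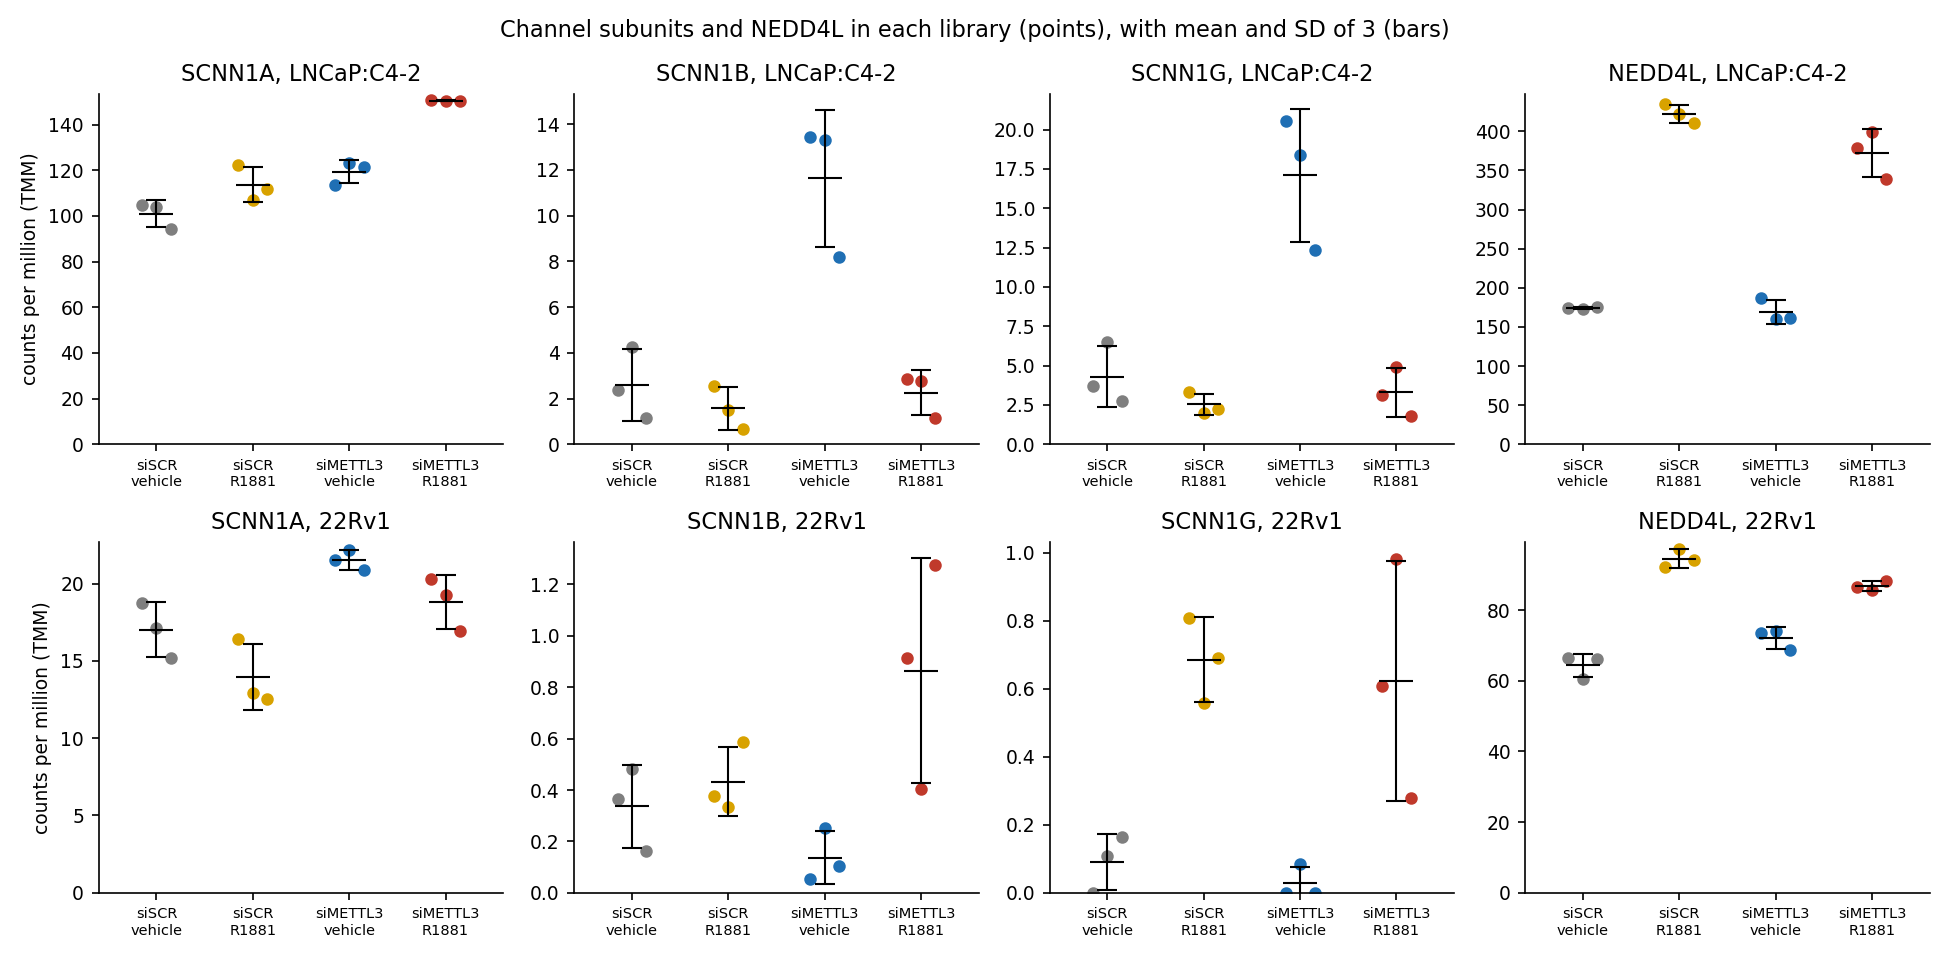
CPM (TMM-scaled) of SCNN1A, SCNN1B, SCNN1G and NEDD4L in each library (points), with the mean and SD of 3 libraries (bars), in LNCaP:C4-2 (top) and 22Rv1 (bottom), each panel on its own linear axis from 0. SCNN1B and SCNN1G were highest in the siMETTL3 vehicle libraries of LNCaP:C4-2, at 8.17 to 13.4 and 12.4 to 20.5 CPM, and NEDD4L was higher with R1881 in both lines.

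R1881 was compared with vehicle for SCNN1B and SCNN1G in LNCaP:C4-2 under each siRNA. With siMETTL3, SCNN1B differed by -2.35 ± 0.42 and SCNN1G by -2.36 ± 0.33 on the log2 scale, values that contain the group on which the genes were chosen and carry no test. With siSCR the differences were -0.75 ± 0.48 for SCNN1B and -0.78 ± 0.37 for SCNN1G, and the groups overlapped. These comparisons share the siSCR vehicle libraries with the contrast used in the choice, so they carry no test either. Without the filter on low counts, the log2 differences were -0.75 and -0.77. R1881 against vehicle called 15.1% of genes with siSCR and 10.6% with siMETTL3 in this line.

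The interaction of R1881 and siMETTL3, the knockdown difference with R1881 minus that in vehicle, was -1.59 ± 0.65 for SCNN1B and -1.58 ± 0.50 for SCNN1G in LNCaP:C4-2 and is likewise only described. For SCNN1A it was 0.18 ± 0.12 (adjusted p = 0.495). For NEDD4L it was -0.12 ± 0.12 (adjusted p = 0.667). The interaction was called by edgeR at 0 genes of this line (0%), although 2037 had an unadjusted p under 0.05, and by DESeq2 at 57.

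**Figure D2:**
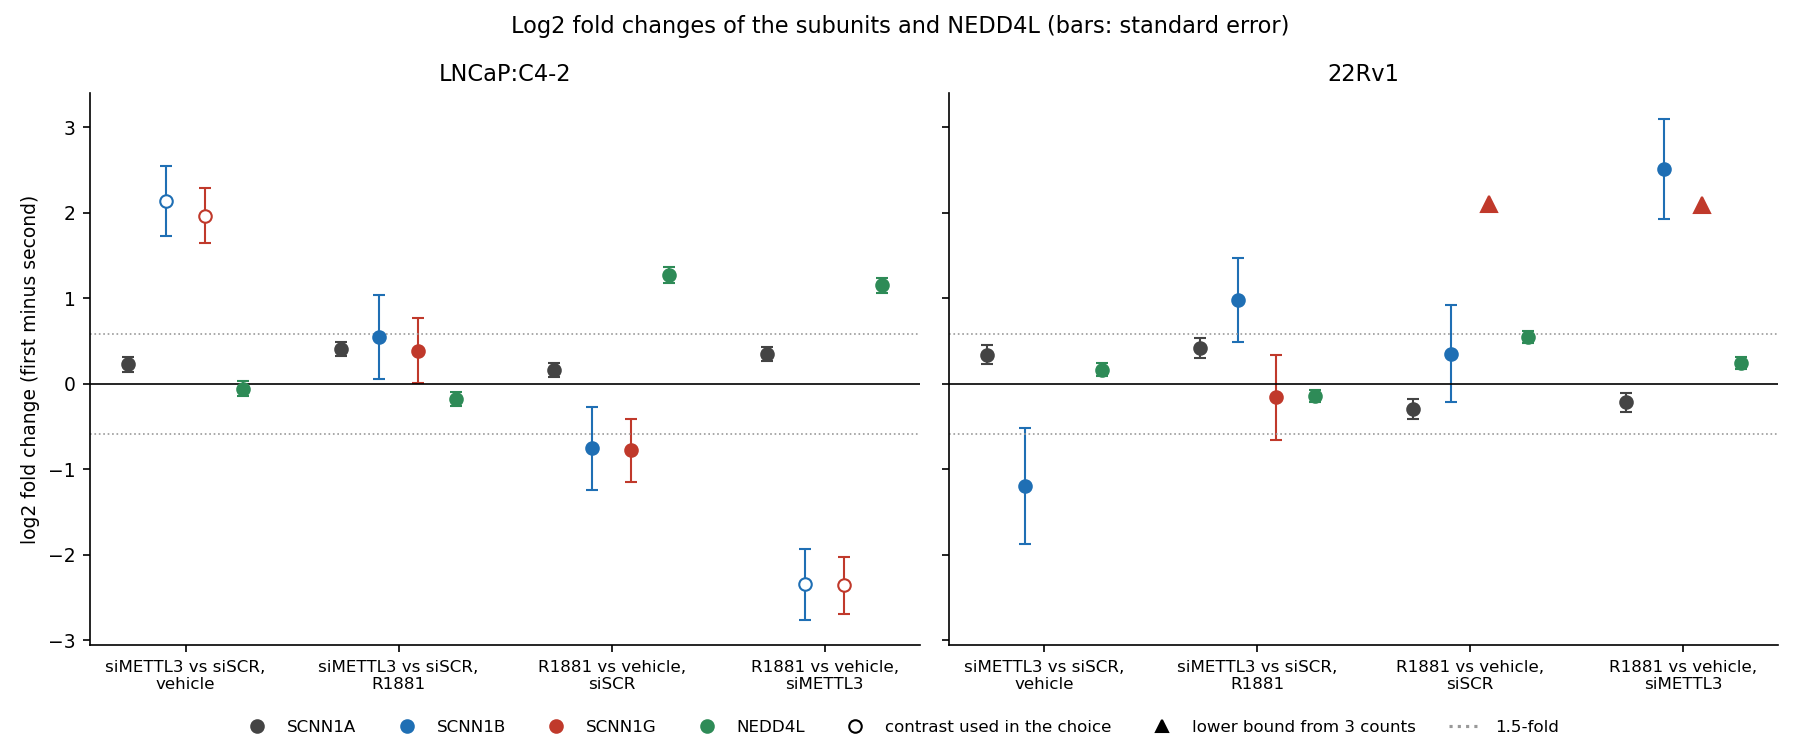
Log2 fold changes (points) and standard errors (bars) of the 4 members in the 4 comparisons of a pair of groups within LNCaP:C4-2 (left) and 22Rv1 (right). Open points are contrasts used in the choice of SCNN1B and SCNN1G, triangles are lower bounds of SCNN1G against the floor of 3 counts, dotted lines mark 1.5-fold, and SCNN1G is left out of the first 22Rv1 comparison because both groups were at the floor.

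In 22Rv1 both subunits were near the limit of detection in vehicle. SCNN1B had 7, 9 and 3 counts with siSCR and 1, 6 and 2 with siMETTL3, and SCNN1G had 0, 2 and 3 counts with siSCR and 0, 2 and 0 with siMETTL3. No rise with knockdown was seen at this depth. SCNN1B differed by -1.19 ± 0.68 (adjusted p = 0.426), and for SCNN1G, at or under 3 counts in all 6 libraries, no fold is given.

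With R1881, SCNN1G was above the floor in 22Rv1. It had 15, 10 and 13 counts with siSCR and 10, 17 and 5 with siMETTL3, and none of these libraries overlapped vehicle. Taken against 3 counts per library in vehicle, SCNN1G was at least 4.28-fold higher with siSCR and at least 4.25-fold higher with siMETTL3. SCNN1B and SCNN1G passed the filter on low counts in 22Rv1 only through R1881 libraries, where they were high, so their differences from vehicle are described with no test. R1881 against vehicle called 13.8% of genes with siSCR and 13.5% with siMETTL3 in 22Rv1.

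SCNN1B in 22Rv1 had more counts with R1881 than in vehicle under siMETTL3, whereas under siSCR the groups overlapped. With siMETTL3 and R1881 it had 15, 7 and 23 counts, above all 3 vehicle libraries (log2 2.51 ± 0.59). With siSCR and R1881 it had 7, 6 and 11 counts, which overlapped vehicle (log2 0.35 ± 0.57). The difference between these responses was 2.17 ± 0.84 (interaction called at 0.0168% of genes). It is built from the differences from vehicle that are only described, so it carries no test either. A dependence of the SCNN1B response on the siRNA was therefore not tested. Knockdown with R1881 differed by 0.97 ± 0.49 for SCNN1B (adjusted p = 0.177) and by -0.16 ± 0.50 for SCNN1G (adjusted p = 0.861), and the groups overlapped. The SCNN1G value turned to 0.20 without siMETTL3 R1881 replicate 3.

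The difference between lines in the R1881 response with siSCR (22Rv1 minus LNCaP:C4-2) is only described for SCNN1B and SCNN1G, because it uses the LNCaP:C4-2 siSCR vehicle libraries of the choice. For SCNN1G the fitted value was 3.62 ± 0.90 on the log2 scale. Since 22Rv1 vehicle was at the floor, it depends on a prior count, and against 3 counts per library the difference was at least 2.88. For SCNN1B it was 1.10 ± 0.87. With R1881 the knockdown effects did not differ detectably between lines for SCNN1A (0.03 ± 0.14), SCNN1B (0.45 ± 0.77), SCNN1G (-0.53 ± 0.67) or NEDD4L (0.06 ± 0.11), each at an adjusted p of at least 0.937, and 0.0926% of genes were called.

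Between the lines, SCNN1B was 7.59-fold lower in 22Rv1 than in LNCaP:C4-2 with siSCR in vehicle and 3.55-fold lower with R1881 (adjusted p = 0.00598). The R1881 value lost its call without LNCaP:C4-2 siSCR R1881 replicate 1 (log2 -1.30, adjusted p = 0.0689). SCNN1G was at least 26.9-fold lower in vehicle and 3.66-fold lower with R1881 (adjusted p = 0.000528). The vehicle values use the LNCaP:C4-2 libraries of the choice and carry no test.

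Per kilobase of exon, the subunits were far from equal. In LNCaP:C4-2 vehicle with siSCR, the levels were 17.2 ± 0.99 CPM per kb (SD, n = 3) for SCNN1A, 0.662 ± 0.40 for SCNN1B and 1.23 ± 0.56 for SCNN1G. SCNN1A then made up 90.3% ± 4.13 (SD, n = 3) of the sum of the 3 subunits. With siMETTL3 in vehicle its share was 72.3% ± 5.69, with SCNN1B at 10.5% ± 2.20 and SCNN1G at 17.2% ± 3.54, values that follow from the choice of the genes. With R1881 its share was 94.6% ± 1.55 with siSCR and 94.4% ± 2.33 with siMETTL3.

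The ratio of SCNN1G to SCNN1B per kilobase was above 1 in all 12 LNCaP:C4-2 libraries, with group means of 1.65 to 2.22. The lowest library was at 1.23 and the highest at 3.69. In 22Rv1, SCNN1A made up 96.3% ± 1.14 with siSCR and 98.9% ± 1.02 with siMETTL3 in vehicle. With R1881 its share was 88.5% ± 2.17 and 88.9% ± 1.05. Shares of the other subunits in 22Rv1 rest on 0 to 23 counts a library. The summed level of the 3 subunits was 17.1 to 20.6 CPM per kb in LNCaP:C4-2 siSCR vehicle and 2.67 to 3.28 in 22Rv1 siSCR vehicle.

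**Figure D3:**
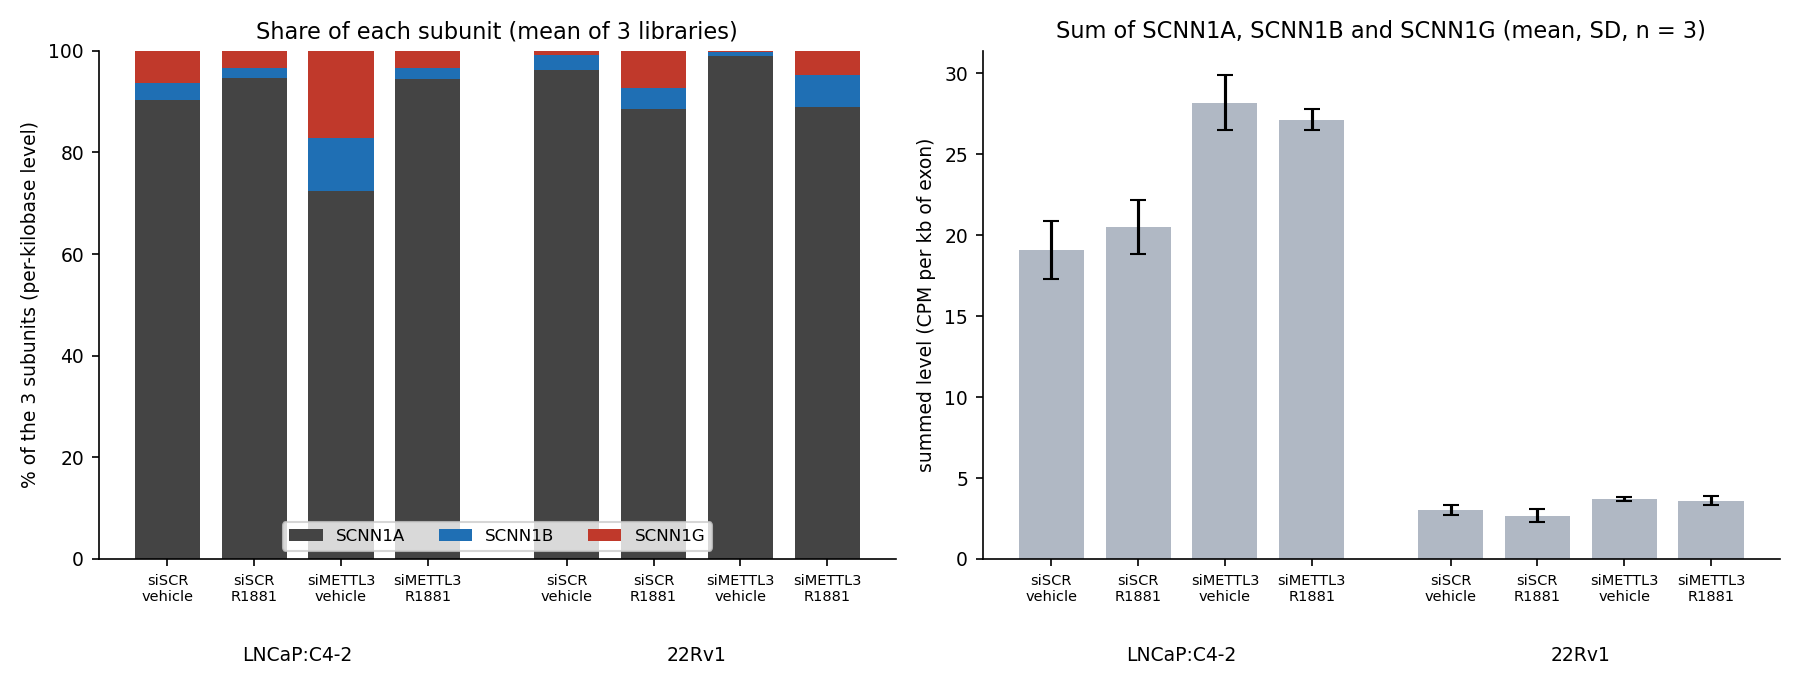
Left, mean share (%) of SCNN1A, SCNN1B and SCNN1G in the sum of their per-kilobase levels, for each group of 3 libraries. Right, that sum in CPM per kb of exon (mean and SD, n = 3). SCNN1A made up 72.3% of the sum in LNCaP:C4-2 siMETTL3 vehicle and 88.5% to 98.9% in the other 7 groups.

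SCNN1B and SCNN1G varied together in LNCaP:C4-2. Over its 12 libraries, each was the gene most like the other among genes with a mean of at least 1 CPM (Pearson r = 0.969 of log2(CPM + 0.5), Spearman rho = 0.916). Both were chosen for the same group difference, which shapes this value, so the deviations from group means were also compared and gave r = 0.854. In siSCR vehicle, replicate 2 was the highest for both genes and replicate 3 the lowest. SCNN1A had r = 0.055 with SCNN1B and -0.048 with SCNN1G, but 0.477 and 0.364 for the deviations. NEDD4L had r = -0.601 with SCNN1B and -0.663 with SCNN1G, but 0.482 and 0.607 for the deviations. Positive values for the deviations were thus not particular to the pair, for which the value was higher. In 22Rv1 the value for SCNN1B and SCNN1G was 0.462, and -0.609 for the deviations, from counts of at most 23. These correlations are descriptions over libraries that share conditions and depth.

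**Figure D4:**
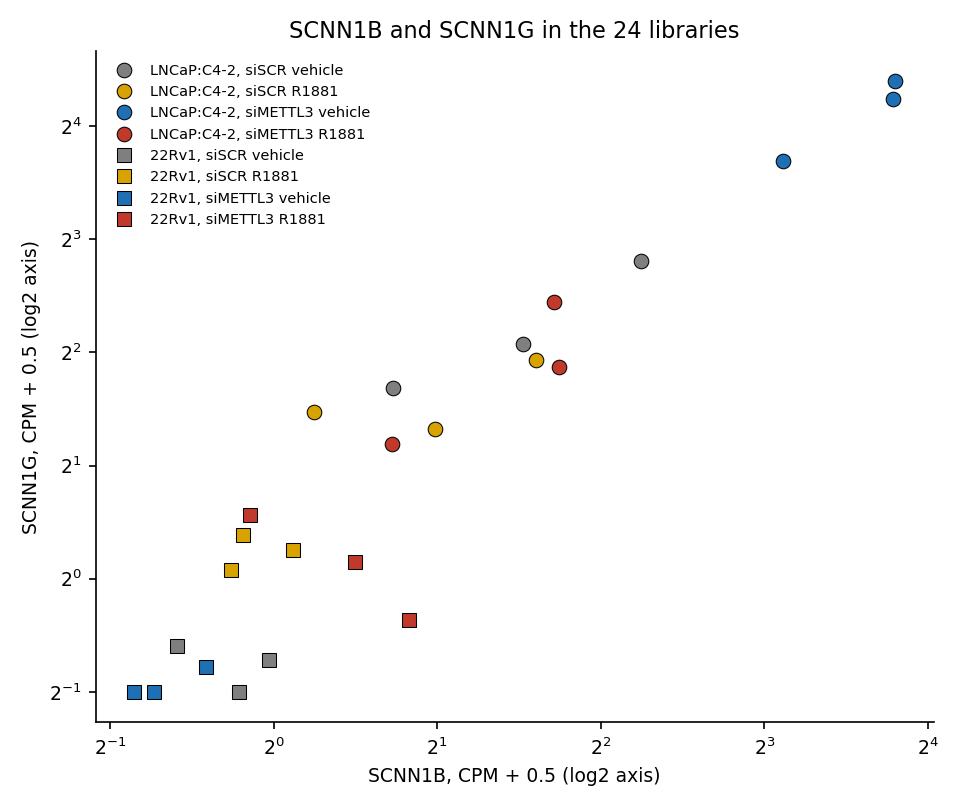
SCNN1B (x axis) and SCNN1G (y axis) in the 24 libraries, as CPM + 0.5 on log2 axes, with circles for LNCaP:C4-2 and squares for 22Rv1. The 3 LNCaP:C4-2 siMETTL3 vehicle libraries lay at the upper right, and all 12 libraries of 22Rv1 were below 1.3 CPM for both genes.

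After SCNN1G, the genes whose levels were most like SCNN1B in LNCaP:C4-2 were TP53I11 (r = 0.960), SLC22A23 (0.956), KCNG1 (0.952) and KIF3C (0.947). For SCNN1G they were CCNG2 (0.957), BBS2 (0.950), EGLN3 (0.949) and KCNG1 (0.949). TMEM125 was the most like SCNN1A (0.980), followed by PHYKPL (0.964), TMED9 (0.960), SLC39A7 (0.959) and the unnamed gene ENSG00000270168 (0.956). CAP2, OTULIN and MBOAT2 (each 0.997), ENDOD1 (0.996) and AFF3 (0.995) were the most like NEDD4L. In 22Rv1 the first in order were CTBP1 for SCNN1A (0.970), ZNF202 for SCNN1B (0.891), CD9 for SCNN1G (0.970) and WSB2 for NEDD4L (0.973), and none of the 5 most alike genes of a member was shared between the lines.

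The neighbours of SCNN1B and SCNN1G on chromosome 16 were not called for knockdown. Within 500 kb, 31 other genes were annotated and 11 passed the filter, among them USP31, COG7, GGA2, EARS2, UBFD1, NDUFAB1, PALB2, DCTN5 and PLK1. In LNCaP:C4-2 vehicle, 0 of these 11 were called for knockdown by edgeR, beside 1.20% of all genes, with log2 differences from -0.25 to 0.14 and a median of -0.08. With R1881 the knockdown differences ran from -0.19 to 0.34, and 0 were called, beside 0.700% of all genes. At these shares, 0 of 11 is near the background. PLK1, a mitotic kinase, was the 1 neighbour called for R1881 with siSCR in LNCaP:C4-2 (log2 -0.64), beside 15.1% of all genes. In 22Rv1, 0 of 11 were called in each of the 4 comparisons of a pair of groups within the line. Over all genes there, knockdown called 0.202% in vehicle and 3.29% with R1881, and R1881 called 13.8% with siSCR and 13.5% with siMETTL3.

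NEDD4L, whose product ubiquitinates the channel, was the member that responded to androgen most clearly. In LNCaP:C4-2 with siSCR it stood at 174, 173 and 175 CPM in vehicle and at 434, 422 and 411 CPM with R1881. The groups did not overlap, and NEDD4L was 2.41-fold higher with R1881 (log2 1.27 ± 0.09, adjusted p = 4.03e-08). With siMETTL3 it stood at 186, 160 and 161 CPM in vehicle and at 378, 399 and 339 CPM with R1881 (2.22-fold, log2 1.15 ± 0.09, adjusted p = 1.54e-07). The rise kept its call in all 6 omissions of 1 library and all 7 other settings with either siRNA.

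In 22Rv1 the response of NEDD4L was smaller. With siSCR it stood at 66.4, 60.6 and 66.2 CPM in vehicle and at 92.2, 97.4 and 94.2 CPM with R1881, a 1.46-fold difference that passed the adjusted p (3.18e-06) and lay below the fold threshold. With siMETTL3 the difference was 1.18-fold (log2 0.24 ± 0.07, adjusted p = 0.0106). The lines differed in the response with siSCR by -0.72 ± 0.11 on the log2 scale (22Rv1 minus LNCaP:C4-2, adjusted p = 1.57e-05). Within 22Rv1 the response with siMETTL3 was 0.31 lower on the log2 scale than with siSCR, which did not pass the test (-0.31 ± 0.10, adjusted p = 0.802).

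Knockdown did not detectably change NEDD4L. The log2 differences were -0.06 ± 0.09 in vehicle (adjusted p = 0.787) and -0.18 ± 0.09 with R1881 (adjusted p = 0.188) in LNCaP:C4-2. They were 0.17 ± 0.07 (adjusted p = 0.282) and -0.14 ± 0.07 (adjusted p = 0.173) in 22Rv1. NEDD4L was 2.70-fold lower in 22Rv1 than in LNCaP:C4-2 in vehicle (adjusted p = 2.91e-15) and 4.46-fold lower with R1881 (adjusted p = 5.05e-19). Per kilobase, NEDD4L was at 10.8 ± 0.09 CPM per kb in LNCaP:C4-2 siSCR vehicle, below SCNN1A at 17.2 ± 0.99, and at 26.2 ± 0.73 with R1881, above SCNN1A at 19.4 ± 1.30. In 22Rv1 it was above SCNN1A in all 4 groups, for example 3.996 ± 0.20 against 2.90 ± 0.30 in siSCR vehicle.

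Around the channel, 58 other genes in 5 lists were examined, of which 46 passed the filter in LNCaP:C4-2, 47 in 22Rv1 and 48 over both lines. In knockdown, few were called: 2 of 46 in LNCaP:C4-2 vehicle, 2 of 46 in LNCaP:C4-2 with R1881, 0 of 47 in 22Rv1 vehicle and 2 of 47 in 22Rv1 with R1881. Over all genes tested these shares were 1.20%, 0.700%, 0.202% and 3.29%. In the 22Rv1 vehicle comparison DESeq2 called 1 of them, a protease or inhibitor. With R1881 and siSCR, 13 were called higher and 2 lower in LNCaP:C4-2, and 8 higher and 4 lower in 22Rv1, beside 15.1% and 13.8% of all genes in either direction. These include SLC26A3 in LNCaP:C4-2 and SCNN1D in 22Rv1, which passed the filter only through the treatment where they were high. With siMETTL3 the counts were 14 and 2, and 8 and 3, beside 10.6% and 13.5%. The medians over the lists with siSCR were 0.09 in LNCaP:C4-2 and 0.03 in 22Rv1, beside -0.03 and 0.002 over all genes tested.

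The other members of the channel and degenerin family include SCNN1D, the delta subunit, which can replace alpha in the channel. In LNCaP:C4-2 it was at 20.6 ± 4.83 CPM with siSCR in vehicle and in 22Rv1 at 0.938 ± 0.32 CPM (21.8-fold lower, adjusted p = 1.65e-15). Per kilobase it was above SCNN1B and SCNN1G in LNCaP:C4-2 siSCR vehicle, at 5.13 ± 1.20 CPM per kb. In 22Rv1 with siSCR it had 24, 18 and 11 counts in vehicle and 4, 9 and 5 with R1881 (log2 -1.52 ± 0.44). That value ran from -1.94 to -1.26 in omissions of 1 library. SCNN1D passed the filter on low counts in 22Rv1 only through vehicle libraries, where it was higher, so the value is described with no test. In LNCaP:C4-2 the value was -0.58 ± 0.17 (adjusted p = 0.0224), just under the fold threshold, and it was called with scaling by library size alone (log2 -0.70), without siSCR vehicle replicate 3 (-0.73) and without siSCR R1881 replicate 3 (-0.66).

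ASIC1 and ASIC3, proton-gated relatives of the channel, were the other 2 of the 6 family genes that passed the filter. ASIC1 fell with R1881 in 22Rv1 from 18.3 ± 2.20 to 10.7 ± 1.22 CPM (log2 -0.78 ± 0.14). ASIC3 was at 18.5 ± 4.17 CPM in 22Rv1 and 0.631 ± 0.23 CPM in LNCaP:C4-2 in vehicle (log2 4.86 ± 0.23), opposite in direction to SCNN1D. With knockdown, 0 of these 3 genes were called in either line and treatment by edgeR with all 12 libraries. Over all genes the shares were 0.202% to 3.29%, so 0 of 3 is near the background.

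Among ubiquitin ligases and their modulators, 1 of 10 tested genes was called for R1881 with siSCR in LNCaP:C4-2 and 2 of 10 in 22Rv1. These counts are near the shares over all genes, 15.1% and 13.8%. NDFIP2, an adaptor that recruits NEDD4-family ligases, rose in LNCaP:C4-2 from 70.6 ± 1.58 to 155 ± 14.5 CPM (log2 1.13 ± 0.12). In 22Rv1 the deubiquitinase UCHL3 rose (log2 0.93 ± 0.21) and USP2, a deubiquitinase that acts on the channel, fell (log2 -0.62 ± 0.19, lost when siSCR vehicle replicate 1 or siSCR R1881 replicate 1 or 2 was left out). With knockdown 0 of 10 were called in any of the 4 comparisons by edgeR, with list medians from -0.26 to -0.02. Over all genes 0.202% to 3.29% were called in these comparisons, so 0 of 10 is near the background.

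Channel-activating proteases and their inhibitors gave 8 tested genes of 10. TMPRSS2, a serine protease encoded by an androgen target gene, rose with R1881 in LNCaP:C4-2 with siSCR from 49.0 ± 3.81 to 948 ± 254 CPM (log2 4.26 ± 0.23). In 22Rv1 it was at 6.32 ± 1.06 and 4.81 ± 0.61 CPM and was not called for R1881. It was higher with siMETTL3 than siSCR in 22Rv1 with R1881 (log2 0.92 ± 0.18). TMPRSS4 fell with R1881 in 22Rv1 (log2 -2.01 ± 0.27). PRSS8, the prostasin that cleaves the gamma subunit, was 4.09-fold lower in 22Rv1 than in LNCaP:C4-2 in vehicle with siSCR (log2 -2.03 ± 0.16). Knockdown was called at 0 of the 8 genes in LNCaP:C4-2 by edgeR in either treatment, whereas DESeq2 called 2 in vehicle. Over all 16435 genes tested, DESeq2 called 381 and edgeR 197 in vehicle. The edgeR shares were 1.20% in vehicle and 0.700% with R1881, so 0 of 8 is near the background. PRSS8 averaged 56.2 ± 8.23 CPM in siSCR and 85.9 ± 10.9 CPM in siMETTL3 vehicle libraries of that line.

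Of the receptors, kinases and enzymes of corticosteroid signalling, which raise channel activity in the kidney, 7 of 15 were called higher and 4 lower in 22Rv1 than in LNCaP:C4-2 with siSCR in vehicle, beside 59.2% of all genes called in either direction. The glucocorticoid receptor gene NR3C1 averaged 0.297 ± 0.09 CPM in LNCaP:C4-2 and 55.0 ± 3.59 CPM in 22Rv1 in siSCR vehicle (log2 7.50 ± 0.19). The mineralocorticoid receptor gene NR3C2 was present in both lines, with group means of 8.80 to 27.2 CPM. HSD11B2, the enzyme that inactivates cortisol in aldosterone-responsive cells, had group means of 18.02 to 49.9 CPM, and HSD11B1 reached at most 1 count in a library.

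R1881 with siSCR called 6 of 13 genes of this list higher and 0 lower in LNCaP:C4-2, beside 15.1% of all genes in either direction. SGK1, the kinase that phosphorylates the NEDD4L product, rose from 1.49 ± 0.31 to 14.4 ± 1.87 CPM (log2 3.26 ± 0.24) there and was at 0.591 and 0.741 CPM in 22Rv1 (log2 0.32 ± 0.46, adjusted p = 0.630). The lines differed in this response (log2 -2.94 ± 0.53, adjusted p = 0.00024). FKBP5, a chaperone of steroid receptors, rose in both lines (log2 3.49 ± 0.10 and 3.33 ± 0.07), as did STK39, a kinase of the WNK pathway (2.59 ± 0.10 and 1.45 ± 0.11), and SGK3 (0.92 ± 0.13 and 0.85 ± 0.17). SGK2 rose in LNCaP:C4-2 (log2 1.23 ± 0.38), a call lost without any 1 of the 3 siSCR vehicle replicates or siSCR R1881 replicate 1 (log2 0.90 to 1.32). With knockdown, 0 of 13 in LNCaP:C4-2 and 0 of 15 in 22Rv1 were called by edgeR with all 12 libraries. Over all genes the shares were 1.20% and 0.700% in LNCaP:C4-2 and 0.202% and 3.29% in 22Rv1, in vehicle and with R1881. Counts of 0 are near that background. DESeq2 called 2 in each LNCaP:C4-2 comparison. Over all 16435 genes tested DESeq2 called 381 in vehicle and 516 with R1881, where edgeR called 197 and 115.

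In the list of other sodium, potassium and chloride transport, R1881 with siSCR called 5 of 12 higher and 2 lower in LNCaP:C4-2. The 5 include SLC26A3, which passed the filter on low counts there only through R1881 libraries, where it was high. In 22Rv1 R1881 with siSCR called 4 of 11 higher and 0 lower. Over all genes the shares in either direction were 15.1% in LNCaP:C4-2 and 13.8% in 22Rv1. ATP1B1, the beta subunit of the sodium pump, fell in LNCaP:C4-2 (log2 -1.22 ± 0.09) and stayed at -0.01 ± 0.08 in 22Rv1, a difference between the lines of 1.20 ± 0.11 (adjusted p = 1.48e-08). FXYD3, a regulator of the pump, rose with R1881 in LNCaP:C4-2 (log2 2.32 ± 0.16). SLC12A2, the cotransporter that loads cells with chloride, fell there (log2 -1.32 ± 0.12). The potassium channel gene KCNMA1 (1.69 ± 0.12 and 1.08 ± 0.08) and the aquaporin gene AQP3 (2.25 ± 0.38 and 1.47 ± 0.09) rose in both lines.

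SLC26A3, an apical chloride and bicarbonate exchanger, had 0 counts in the LNCaP:C4-2 siSCR vehicle libraries and averaged 6.21 ± 0.89 CPM with R1881, at least 37.2-fold higher. In 22Rv1 it rose from 0.409 ± 0.12 to 6.47 ± 1.91 CPM (log2 3.96 ± 0.29). This list also held the genes called for knockdown in LNCaP:C4-2. FXYD3 rose from 4.78 ± 0.18 to 11.7 ± 1.61 CPM in vehicle (log2 1.28 ± 0.16) and was higher with R1881 too (0.76 ± 0.14). KCNMA1 fell in vehicle (log2 -0.80 ± 0.13), and SLC26A3 was lower with R1881 (-1.64 ± 0.27). Each of these calls was lost when single libraries were left out. In vehicle, FXYD3 lost its call without siSCR replicate 3 (log2 1.26), and KCNMA1 without siSCR replicate 3 (-0.67) or siMETTL3 replicate 2 (-0.83). With R1881, FXYD3 lost its call without siSCR replicate 2 (0.68) or 3 (0.67) or siMETTL3 replicate 1 (0.73) or 2 (0.72). SLC26A3 lost its call in 5 of 6 omissions, all but siSCR R1881 replicate 1. AQP3 rose with knockdown in 22Rv1 with R1881 (0.59 ± 0.09), a call lost without siSCR replicate 3 (0.54) or siMETTL3 replicate 1 (0.53).

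**Figure D5:**
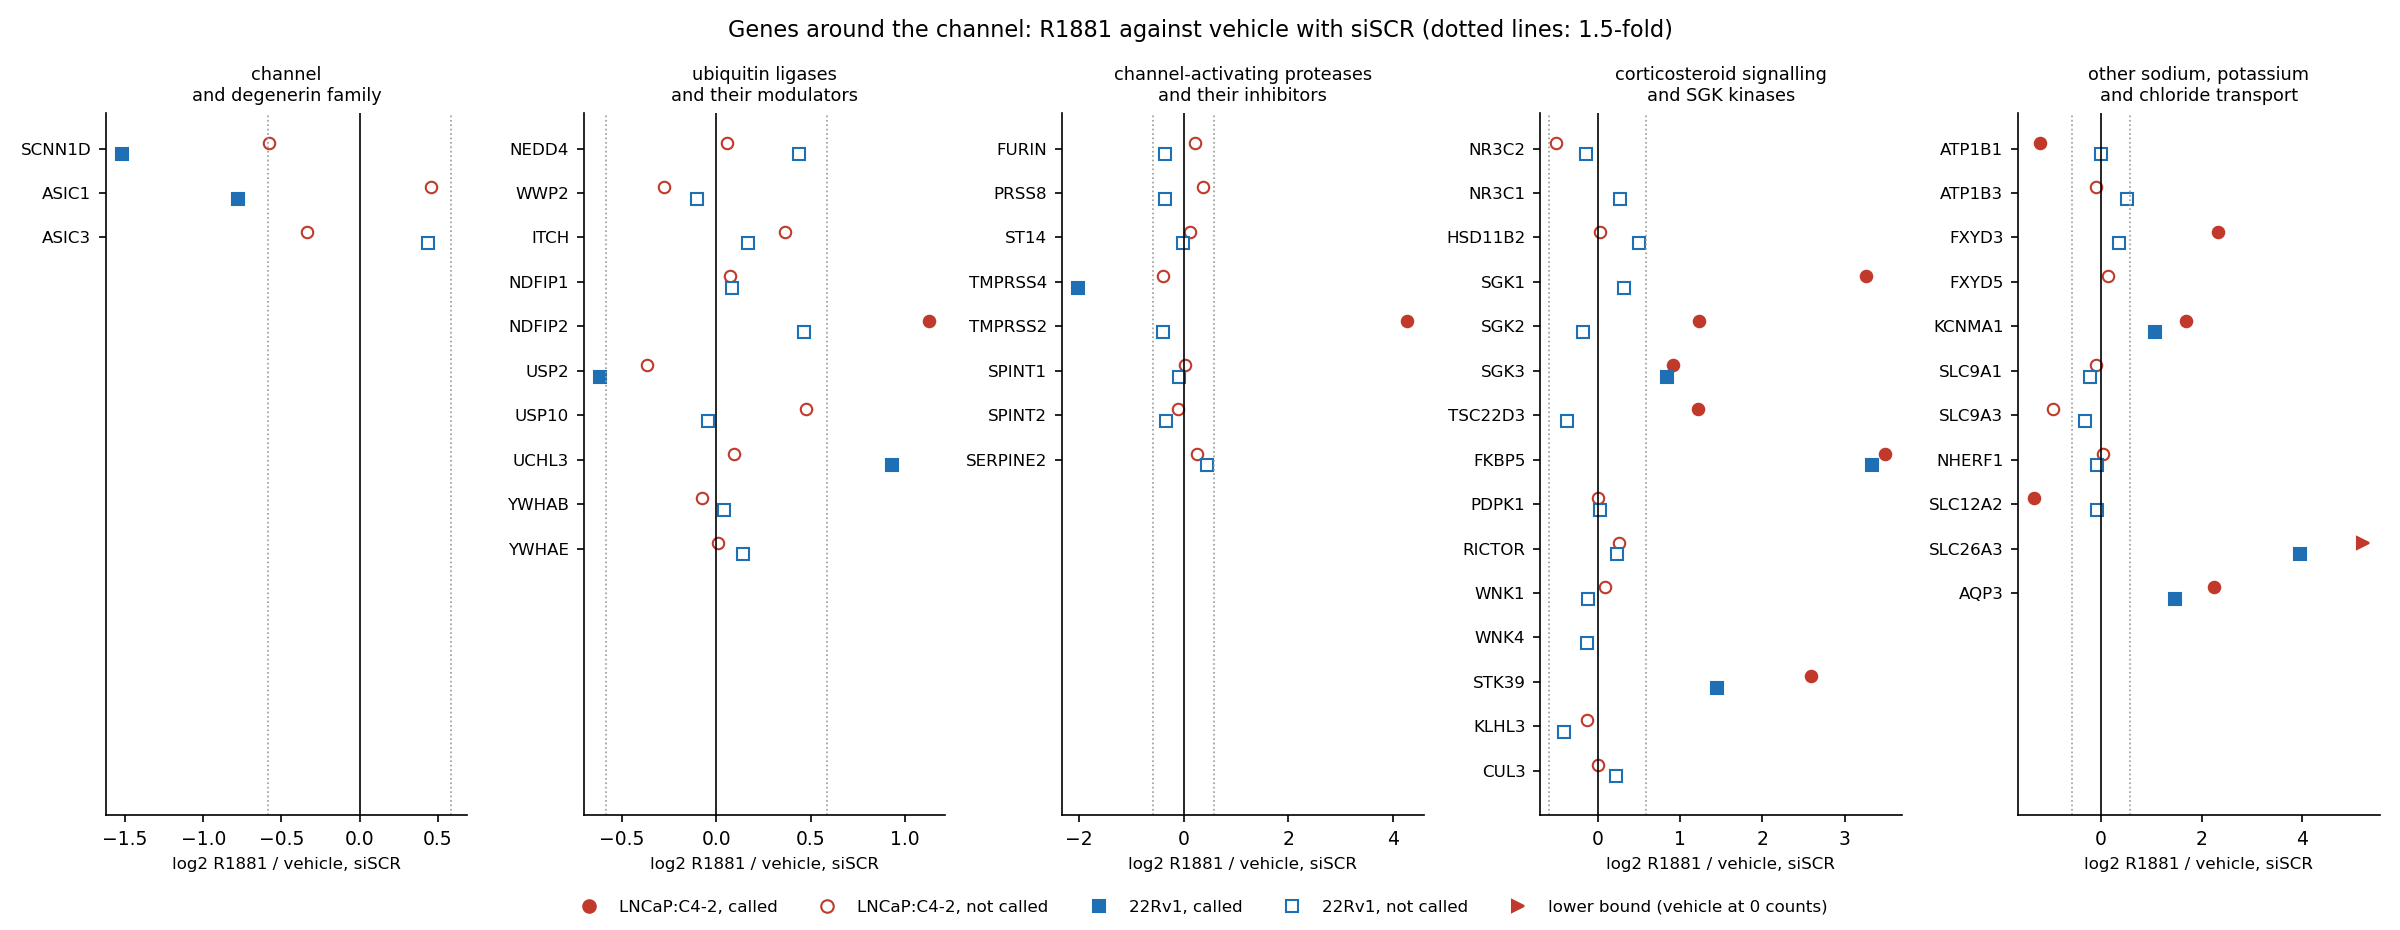
Log2 difference of R1881 against vehicle with siSCR for tested genes of 5 lists around the channel, in LNCaP:C4-2 (circles) and 22Rv1 (squares). Filled symbols were called, open symbols were not, dotted lines mark 1.5-fold, and the right-pointing triangle of SLC26A3 is a lower bound. The square of SCNN1D is filled, but its value is only described. FKBP5 stood at 3.49 in LNCaP:C4-2 and 3.33 in 22Rv1, and TMPRSS2 at 4.26 and -0.40.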

How the data were processed

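RNA-seq was run on total RNA of 24 siRNA-transfected, R1881- or vehicle-treated LNCaP:C4-2 and 22Rv1 cultures. Per the study's methods and the file headers, the authors used Trim Galore on the paired reads, STAR for alignment (GRCh38) and featureCounts 1.5.0 without strand for fragments per Ensembl release 83 gene, and deposited raw counts. Trimming and alignment versions are not given in the sources used here. Gene symbols were matched for 41209 of 60675 IDs.

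Here, counts were tested per line (12 libraries) with the edgeR 4.0.16 quasi-likelihood test in R 4.3.3 (TMM, filterByExpr with a minimum count of 10 and a minimum total of 15, a mean per condition), and the lines were compared in a fit of all 24 libraries, each with Benjamini-Hochberg adjustment. This tested 16435, 17865 and 19437 genes. A call needed an adjusted p under 0.05 and a 1.5-fold change, and for differences between effects the adjusted p alone. Error bars are SE, or SD where given as such. The floor was 3 counts per library, for counting error only. Alternatives were other scaling, filters, a replicate block, DESeq2 1.42.0, fewer libraries and leaving out single libraries. Named genes were the members, the called list genes and, per member, the 5 genes of highest Pearson r over 12 libraries. The scripts were tested on simulated data. The members and lists were chosen with earlier results of these data known. Some genes of the lists and markers are not reported here, but stay in the counts.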

Additional observations from a re-analysis of the deposited data

Results flagged for a closer look

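The responses of 3 of the 4 members to R1881 with siSCR were singled out for a difference between the lines (22Rv1 minus LNCaP:C4-2, edgeR fit of all 24 libraries). SCNN1A differed by -0.46 on the log2 scale (adjusted p = 0.0234), from 0.16 in LNCaP:C4-2 and -0.29 in 22Rv1. NEDD4L differed by -0.72 (adjusted p = 1.57e-05), from 1.27 in LNCaP:C4-2 and 0.55 in 22Rv1. The value of SCNN1G, 3.62, is a description with no test, because it uses the LNCaP:C4-2 siSCR vehicle libraries on which SCNN1G was chosen. It also depends on the prior count, since the 22Rv1 vehicle libraries held 0 to 3 counts, and its bound was at least 2.88. SCNN1B, at 1.10, was not singled out and is likewise only described. The causes were not tested.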

How the results depend on the processing

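Of 771 values of the 4 members under alternatives, 755 kept their direction and side of the threshold, 6 lost a call, 2 gained one and 8 turned sign. The 771 include the contrasts of SCNN1B and SCNN1G that are only described, so these counts are no test of those contrasts. The SCNN1A difference between lines in R1881 response missed the threshold with library size alone (-0.40) and with no filter (-0.45), and ranged from -0.61 to -0.39 in omissions of 1 library. SCNN1B in 22Rv1 against LNCaP:C4-2 with R1881 ranged from -2.22 to -1.30, without LNCaP:C4-2 siSCR R1881 replicates 3 and 1. The 2 gained calls were those of SCNN1B (-0.75) and SCNN1G (-0.77) for R1881 with siSCR in LNCaP:C4-2, with no filter. They are not read as tests, because that contrast uses the siSCR vehicle libraries on which both genes were chosen.

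Values near 0 that turned sign in omissions were uncalled in all settings. SCNN1A ranged from -0.0057 to 0.20 for the 22Rv1 interaction and from -0.049 to 0.18 for the difference between lines in knockdown with R1881, where SCNN1B ranged from -0.092 to 0.82. Knockdown with R1881 ranged for SCNN1G from -0.042 to 0.68 in LNCaP:C4-2 and from -0.65 to 0.20 in 22Rv1. SCNN1D ranged from -0.33 to 0.18 for knockdown in 22Rv1 vehicle, and METTL3 from -0.039 to 0.094 for the LNCaP:C4-2 interaction.

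Counts of called genes moved more. Knockdown in LNCaP:C4-2 vehicle (197 genes) gave 464 with no filter, 381 with DESeq2, 112 with only the libraries compared and 0 (without siSCR replicate 3) to 339 (without siMETTL3 replicate 1) in omissions. With R1881 (115) it gave 776, 516 and 520, and 1 (without siMETTL3 replicate 1) to 1497 (without siSCR replicate 1). The LNCaP:C4-2 interaction (0) gave 351 with no filter, 57 with DESeq2 and 0 to 8 in omissions. In 22Rv1, knockdown in vehicle (36) gave 87 with no filter, 14 with only the libraries compared and 15 (without siMETTL3 replicate 2) to 228 (without siMETTL3 replicate 1). With R1881 (587) omissions gave 309 to 538, and the interaction (3) gave 79 with no filter and 2 to 30. The lines differed at 6371 genes in vehicle and 6641 with R1881 where at least 10 counts in every library were required, which tests fewer genes. Their difference in knockdown with R1881 (18) gave 73 with no filter, 93 with DESeq2 and 1 to 25 in omissions. Apart from the reduced gene set, the cause was not tested.

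Replicate numbers did not pair the libraries. Deviations of same-numbered libraries from their group means correlated at -0.017 on average in LNCaP:C4-2 and -0.010 in 22Rv1 (18 pairs each), and 4 and 3 of 12 libraries were closest to their own number. With the replicate block, the counts were 39 for LNCaP:C4-2 knockdown with R1881 and 5 for the difference between lines in it, and SCNN1A knockdown with R1881 in LNCaP:C4-2 had an adjusted p of 0.0842 (edgeR). The block also ended the LNCaP:C4-2 knockdown calls with R1881 of FXYD3 (0.77, adjusted p = 0.0517) and SLC26A3 (-1.65, adjusted p = 0.0633). SCNN1B and SCNN1G rest on few counts outside one group, at most 23 in 22Rv1, which limits what could be detected there.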
